A study of Homo sapiens with 12 samples.

Results

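The 44 genes described here were chosen by symbol as a list of synaptic vesicle and exocytosis genes, and all 44 were found among the 56508 symbols of the table. The choice was made with earlier results of these data known. Nerve cells and neuroendocrine cells store transmitters and hormones in vesicles and release them when calcium enters. Vesicle proteins such as synaptophysin and the synapsins hold and sort the vesicles, RAB3 proteins and the active zone scaffolds (RIM, Munc13, piccolo, bassoon) dock and prime them at the membrane, the SNAREs fuse them under the control of complexins, and synaptotagmins are the calcium sensors that trigger fusion. NSF and the SNAPs then take the SNARE complex apart, and dynamin and amphiphysin return membrane through endocytosis. Small cell lung cancer is a neuroendocrine carcinoma, and many of its lines carry this machinery. Of the 44 genes, 38 reached a level of 1 or more in at least 3 of 12 libraries and were tested. The synapsin SYN3, the vesicle proteins SV2B and SYNGR3, the active zone scaffolds RIMS1 and BSN and the RAB3 effector RPH3A did not, and their highest value in any library was 1.1, for SYNGR3 in an H211 control.

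Messenger RNA was sequenced from H82 and H211, 2 established human lines labelled as small cell lung cancer and as wild type in genotype. Each line was cultured with 1 µM ORY-1001, an inhibitor of the histone demethylase LSD1 (gene KDM1A), or with vehicle, labelled PBS, so that there were 3 libraries each of H82 with ORY-1001, H82 control, H211 with ORY-1001 and H211 control, and no other allele or agent is named. The labels give the exposure as 7 days in 1 field and 10 days in another. All 3 libraries of a group come from 1 line, and nothing in the labels says that they were separate cultures, so the p-values speak only of the spread between libraries, and that spread may be technical.

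Levels are in TPM, a unit scaled by transcript length and library size, which appears here to have been rescaled between libraries, and the depth behind each value is unknown. Being per length, levels of different genes can be set beside each other. Tests were made on log2(level + 1) with limma, and a gene is called, or said to rise or fall, at an adjusted p under 0.05 over the 15456 genes tested. Log2 fold changes are on that scale, which understates the change of low genes, and folds are ratios of group means. Within groups, the correlation of libraries over the tested genes, which are not independent replicates, was 0.988 to 0.991. KDM1A was at 190 ± 8.17 with ORY-1001 and 184 ± 2.43 in controls of H82, and at 188 ± 4.68 with ORY-1001 and 185 ± 2.57 in controls in H211 (SD, n = 3 each), and was not called in either line (adjusted p = 0.354 and 0.663). NEUROD1, a neuronal transcription factor, marked H82, and POU2F3, the factor of tuft cells, marked H211. A list of 15 blood cell transcripts differed between libraries of a group. In H82 its summed level was 33.1 to 142 with ORY-1001 and 41.4 to 56.2 in controls, and 9 and 4 of the 15 reached 1 in some library. In H211 the sum was 33.6 to 46.3 with ORY-1001 and 42.9 to 264 in controls, and 10 and 11 of the 15 reached 1. HBB, the adult beta globin, was at 0 in both H82 groups and in H211 with ORY-1001, ELANE in both control groups, and TYROBP, S100A8 and S100A9 in H82 controls. The sum was above 100 in H82 ORY-1001 replicate 3 and H211 control replicates 1 and 2, and earlier results had also set H211 ORY-1001 replicate 3 apart, so counts are also given without these 4 libraries. The sum was 33.1 to 56.2 in the other 8.

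Many vesicle release genes fell in H82 with ORY-1001, and none of the list rose. Of the 38 tested, 22 fell and 0 rose, where 23.9% of all genes tested fell and 19.1% rose. Because the list was chosen with earlier results of these data known, its distance from these shares is a description and not independent support. The median log2 fold change of the 38 was -0.48, beside -0.02 over all genes. In 24 of the 38 all 3 treated libraries lay below all 3 controls, as they did for 28.7% of all genes. In 8 the fall was at least 2-fold on the log2(level + 1) scale, as for 2.09% of all genes. RIMS4 and AMPH reached 1 only in H82 controls, and without these 2 genes 20 of 36 fell. Leaving out NSG1 and CPLX3 instead, 20 of 36 fell as well, with a median log2 fold change of -0.46. Summed over the 44 genes, the level was 1171 ± 11.2 with ORY-1001 and 1794 ± 6.25 in controls (SD, n = 3 each). RTN1 was the most abundant of the genes, and without it the sums were 545 ± 12.8 with ORY-1001 and 916 ± 12.9 in controls. All 3 treated libraries held 33 of the 44 genes at 1 or more, and all 3 controls held 36. Fewer cells that carry these transcripts and less of each transcript per cell cannot be told apart in bulk RNA.

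**Figure D1:**
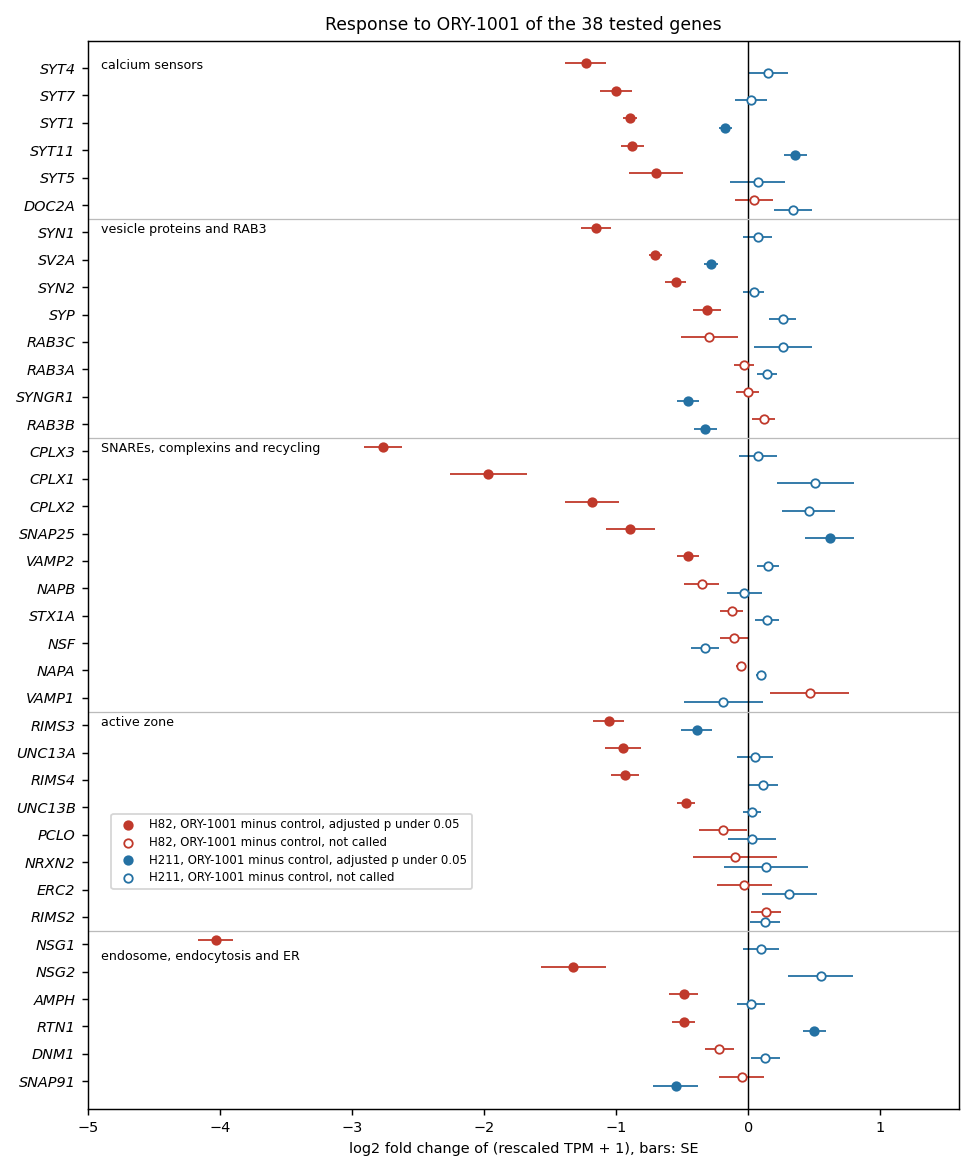
Log2 fold change (x axis, log2 of rescaled TPM + 1, ORY-1001 minus control; bars are SE) of the 38 tested genes, grouped by role, in H82 (red) and H211 (blue); filled points passed an adjusted p under 0.05. In H82 all 22 filled points lie left of 0, with NSG1 at -4.04 and CPLX3 at -2.77, while the H211 points lie between -0.55 and 0.62.

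The deepest falls were in 2 genes whose promoters are shown here as RefSeq gives them (GRCh38.p14, 250 bases before to 50 after the start, read along the gene). NSG1 encodes a protein of neuronal endosomes that sorts receptors, at chr4:4386532-4419058. CPLX3 encodes a complexin, a clamp on the SNARE complex, at chr15:74826627-74831802. SYN1, the synapsin that ties vesicles to the cytoskeleton, lies at chrX:47571901-47619857, and its promoter is shown because it holds the binding letters of REST, the repressor of neuronal genes outside neurons. Capitals mark those letters and the E-boxes searched. The NSG1 window is chr4:4386852-4387151 (plus strand), at 1 of the 2 starts the table gives for the gene. The NSG1 and CPLX3 windows hold none of the letters searched. The CPLX3 window is chr15:74826377-74826676 (plus strand) and the SYN1 window chrX:47619808-47620107 (minus strand).
NSG1: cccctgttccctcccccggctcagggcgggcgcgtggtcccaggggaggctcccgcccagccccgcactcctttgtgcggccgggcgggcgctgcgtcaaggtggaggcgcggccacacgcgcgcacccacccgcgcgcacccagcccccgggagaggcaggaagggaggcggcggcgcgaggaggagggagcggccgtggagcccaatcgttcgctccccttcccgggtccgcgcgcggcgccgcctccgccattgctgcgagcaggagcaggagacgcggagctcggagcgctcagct
CPLX3: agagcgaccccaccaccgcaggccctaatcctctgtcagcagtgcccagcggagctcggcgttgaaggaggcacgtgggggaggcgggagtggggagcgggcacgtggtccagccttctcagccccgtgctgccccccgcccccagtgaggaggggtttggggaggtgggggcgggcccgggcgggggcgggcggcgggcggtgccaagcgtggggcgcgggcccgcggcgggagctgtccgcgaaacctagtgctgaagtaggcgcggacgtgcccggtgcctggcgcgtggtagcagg
SYN1: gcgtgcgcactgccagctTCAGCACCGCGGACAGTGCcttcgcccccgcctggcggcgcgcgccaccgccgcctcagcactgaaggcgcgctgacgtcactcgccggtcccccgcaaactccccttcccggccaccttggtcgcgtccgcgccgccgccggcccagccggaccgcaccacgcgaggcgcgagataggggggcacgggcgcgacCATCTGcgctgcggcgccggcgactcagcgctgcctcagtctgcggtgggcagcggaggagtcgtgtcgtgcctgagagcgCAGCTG
The 300 bases shown were rich in G and C, at 77.3% for NSG1, 75% for CPLX3 and 75.3% for SYN1. The window at the other NSG1 start, not shown, had 67.3%, and that of SYT1 had 62%. The median promoter in the table has 58.7%, and the median promoter of the 34 genes of the list found in it has 67.2%.

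Letters searched on both strands were the left arm (TCAGCACC) and the right arm (GGACAGNGC) of the REST site, the E-boxes CAGATG and CAGCTG, the octamer ATGCAAAT and the GFI1 core AATCANNGC. The left arm stood in the promoters of 6 of 34 listed genes (17.6%), against 2.06% of the 27305 genes in the table, and the right arm in 4 (11.8%), against 2.87%. Both arms with a pair of bases between them stood in the promoters of 6 genes in the whole table, 2 of which are SYN1 and RPH3A. CAGATG was found in 20.6% of the listed genes and 17.5% of all, CAGCTG in 17.6% and 21.1%, AATCANNGC in 5.88% and 4.34%, and ATGCAAAT in 0 and 2.19%. A match of letters is a description of the sequence and not a measured site. The 30 bases around each left arm follow, with both arms in capitals, from the strand that carries the left arm (GRCh38.p14). They lie at chrX:47620065-47620094 (minus) in SYN1, chr12:112791543-112791572 (minus) in RPH3A, chr19:17688336-17688365 (plus) in UNC13A, chr18:43277560-43277589 (plus) in SYT4, chr7:83163029-83163058 (plus) in PCLO and chr15:91099531-91099560 (minus) in SV2B.
SYN1: cagctTCAGCACCgcGGACAGTGCcttcgc
RPH3A: ggcggTCAGCACCacGGACAGCGCtaagat
UNC13A: ttggtTCAGCACCgggggcgcGGACAGCGC
SYT4: tgaaaTCAGCACCtgcccccctcccctcct
PCLO: cgctcTCAGCACCgatttaaaggagcccag
SV2B: aaggcTCAGCACCgaaagactctttaggag
In UNC13A the arms were 8 bases apart, and in SYT4, PCLO and SV2B the right arm was not in the window. Of the 17 genes that fell in H82 and have a promoter in the table, 3 held the left arm (SYN1, SYT4, UNC13A), and of the 13 tested genes that did not fall 1 did (PCLO). REST itself was at 2.18 ± 0.455 with ORY-1001 and 2.11 ± 0.289 in controls of H82 (adjusted p = 0.898), and at 3.78 ± 0.417 with ORY-1001 and 4.52 ± 0.505 in controls in H211 (adjusted p = 0.309; SD, n = 3 each).

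All 5 tested synaptotagmins of the 44 genes fell in H82. SYT1, the fast calcium sensor of vesicle fusion, was at 15.7, 16.7 and 16.6 with ORY-1001, against 31.7, 30.9 and 31.0 in controls. SYT4, which is known to bind membranes with little response to calcium, was at 2.43, 1.92 and 2.68 with ORY-1001, against 5.97, 6.95 and 7.58 in controls. SYT7, a slow, high-affinity sensor, was at 4.85, 5.97 and 5.89 with ORY-1001, against 12.3, 12.6 and 11.4 in controls. SYT11, a family member that does not bind calcium, was at 6.40, 6.5 and 6.84 with ORY-1001, against 12.1, 13.8 and 12.9 in controls. In each of these 4 genes the groups lay clearly apart. The log2 fold change was -0.90 (SE 0.0502, adjusted p = 2.41e-07) for SYT1, -1.23 (SE 0.155, adjusted p = 8.1e-05) for SYT4, -1.0 (SE 0.123, adjusted p = 6.77e-05) for SYT7 and -0.88 (SE 0.0894, adjusted p = 1.69e-05) for SYT11. SYT5, a sensor of secretory granules, stood at 3.72 ± 0.372 with ORY-1001 and 6.97 ± 2.85 in controls (SD, n = 3 each; adjusted p = 0.0171), and its controls were spread out, at 10.1, 4.62 and 6.16. The SYT5 call was lost in 4 alternative fits, with a pseudocount of 0.1 (adjusted p = 0.172), with each line fitted by itself (0.0697), without H82 ORY-1001 replicate 1 (0.0548) and without the 4 libraries (0.0625). DOC2A, a high-affinity calcium sensor, was at 5.80 ± 0.689 with ORY-1001 and 5.63 ± 1.06 in controls and was not called (adjusted p = 0.852).

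Proteins of the vesicle itself moved less evenly. SYN1 was at 1.19, 1.17 and 1.06 with ORY-1001, against 3.80, 3.78 and 3.70 in controls, so that the groups were far apart and each was tight (3.29-fold lower; log2 change -1.15, SE 0.112, adjusted p = 1.23e-05). The second synapsin SYN2 fell 1.55-fold and the vesicle glycoprotein SV2A 1.67-fold. SYP, synaptophysin, an abundant protein of the vesicle membrane and a diagnostic neuroendocrine marker, was at 134 ± 2.67 with ORY-1001 and 166 ± 5.07 in controls (SD, n = 3 each), 1.24-fold lower with an adjusted p of 0.0332. The libraries did not overlap, but the SYP call was lost without any single H82 library, without the 4 libraries, with a pseudocount of 0.1, with no filter on low values and with the replicate block (adjusted p of up to 0.0896 over these 10 fits). The small GTPases RAB3A and RAB3C, which bring vesicles to the membrane, and the synaptogyrin SYNGR1 were not called. RAB3A stood at 30.2 ± 0.553 with ORY-1001 and 31.0 ± 2.48 in controls, RAB3C at 10.1 ± 1.42 with ORY-1001 and 12.6 ± 1.99 in controls, and SYNGR1 at 63.5 ± 1.17 with ORY-1001 and 64.0 ± 8.07 in controls (SD, n = 3 each). RAB3B was under 1 in every H82 library. In all, 4 of the 8 tested genes of this group fell and 0 rose.

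All 3 complexins, the small proteins that hold SNARE complexes ready for calcium, fell. CPLX3 was at 5.80, 5.13 and 5.17 with ORY-1001, against 42.7, 42.0 and 42.1 in controls, 7.88-fold lower, with a log2 fold change of -2.77 (SE 0.144, adjusted p = 1.36e-07). CPLX1 was at 11.3, 16.6 and 15.2 with ORY-1001, against 57.9, 58.0 and 59.6 in controls, 4.07-fold lower, with a log2 fold change of -1.97 (SE 0.292, adjusted p = 0.000257). CPLX2 was less abundant, at 1.02, 1.08 and 1.91 with ORY-1001, against 4.79, 5.15 and 3.03 in controls (log2 fold change -1.18, SE 0.204, adjusted p = 0.000703). The 2 groups were far apart for CPLX3 and CPLX1 and closer for CPLX2, whose replicate 3 of each group lay toward the other group. Of the SNAREs they act on, SNAP25 was at 6.23, 4.68 and 5.29 with ORY-1001, against 11.2, 11 and 10.2 in controls, 2.00-fold lower, with a log2 fold change of -0.89 (SE 0.186, adjusted p = 0.00253). VAMP2, the main vesicle SNARE, fell 1.39-fold (adjusted p = 0.00121). STX1A, the SNARE of the target membrane, was at 17 ± 1.75 with ORY-1001 and 18.6 ± 0.544 in controls (SD, n = 3 each), and its groups overlapped (adjusted p = 0.293). VAMP1 was at 3.23 ± 0.239 with ORY-1001 and 2.08 ± 0.496 in controls, with all 3 treated libraries above all 3 controls and an adjusted p of 0.242. It was called higher without the 4 libraries and when H82 was fitted by itself. The recycling proteins NSF, NAPA and NAPB, which take SNARE complexes apart, were not called. NAPB came closest, at 5.38 ± 0.224 with ORY-1001 and 7.15 ± 0.494 in controls (adjusted p = 0.052), and NAPA, used by all cells, was at 70.2 ± 0.231 with ORY-1001 and 73.1 ± 1.03 in controls. The near copy NSFP1 was at 3.96 to 6.83 in H82, and how reads were divided between it and NSF is not known, so the level of NSF is uncertain.

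At the active zone, the primers and small RIM proteins fell and the large scaffolds were not called. UNC13A, the main neuronal Munc13 that opens syntaxin for assembly, was at 1.03, 0.748 and 1.59 with ORY-1001, against 3.38, 2.69 and 3.07 in controls (2.72-fold lower; log2 change -0.95, adjusted p = 0.000217). UNC13B, its relative, fell 1.42-fold at a higher level, with 11.8 ± 0.571 with ORY-1001 and 16.7 ± 0.394 in controls (SD, n = 3 each). RIMS3 was at 3.67, 4.17 and 4.32 with ORY-1001, against 8.18, 9.90 and 10.6 in controls (log2 fold change -1.06, SE 0.116, adjusted p = 2.89e-05). RIMS4 was at 0.561, 0.655 and 0.931 with ORY-1001, against 2.19, 2.25 and 2.34 in controls (3.16-fold lower; log2 change -0.93, adjusted p = 4.12e-05). These 2 are short RIM forms that lack the RAB3-binding part. The long form RIMS2 was at 1.96 ± 0.0713 with ORY-1001 and 1.71 ± 0.234 in controls, the scaffold ERC2 at 6.17 ± 0.690 with ORY-1001 and 6.48 ± 2.09 in controls, and piccolo (PCLO) at 1.1 ± 0.650 with ORY-1001 and 1.33 ± 0.0505 in controls. The adhesion receptor NRXN2 was at 4.67 ± 0.628 with ORY-1001 and 5.26 ± 1.97 in controls (SD, n = 3 each), and its groups overlapped as did those of RIMS2, ERC2 and PCLO. BSN, which was not tested, was at 0.475, 0.528 and 0.542 with ORY-1001, against 0.976, 0.832 and 0.890 in controls.

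The last 6 genes act in endosomes, endocytosis and the endoplasmic reticulum, and 4 of them fell. NSG1 was at 8.26, 8.91 and 7.11 with ORY-1001, against 146, 146 and 151 in controls, 18.2-fold lower, with a log2 fold change of -4.04 (SE 0.135, adjusted p = 4.33e-09). Its log2 fold change was the lowest of all 15456 genes tested. NSG2, the second member of this family, was at 12.2, 12.1 and 12 with ORY-1001, against 31.2, 32.6 and 31.5 in controls, a fall of 2.63-fold (log2 fold change -1.32, SE 0.247, adjusted p = 0.00122). RTN1, a reticulon of the neuronal endoplasmic reticulum, fell 1.40-fold, to 626 ± 14.5 with ORY-1001, against 879 ± 7.09 in controls (adjusted p = 0.00102). Amphiphysin (AMPH) was at 0.542 ± 0.140 with ORY-1001 and 1.16 ± 0.0927 in controls (SD, n = 3 each) and fell 2.14-fold (adjusted p = 0.00329). Dynamin 1 (DNM1) was not called, at 15.1 ± 1.92 with ORY-1001 and 17.7 ± 2.18 in controls, and SNAP91, a clathrin adaptor of synapses, stayed under 0.1 in every H82 library.

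**Figure D2:**
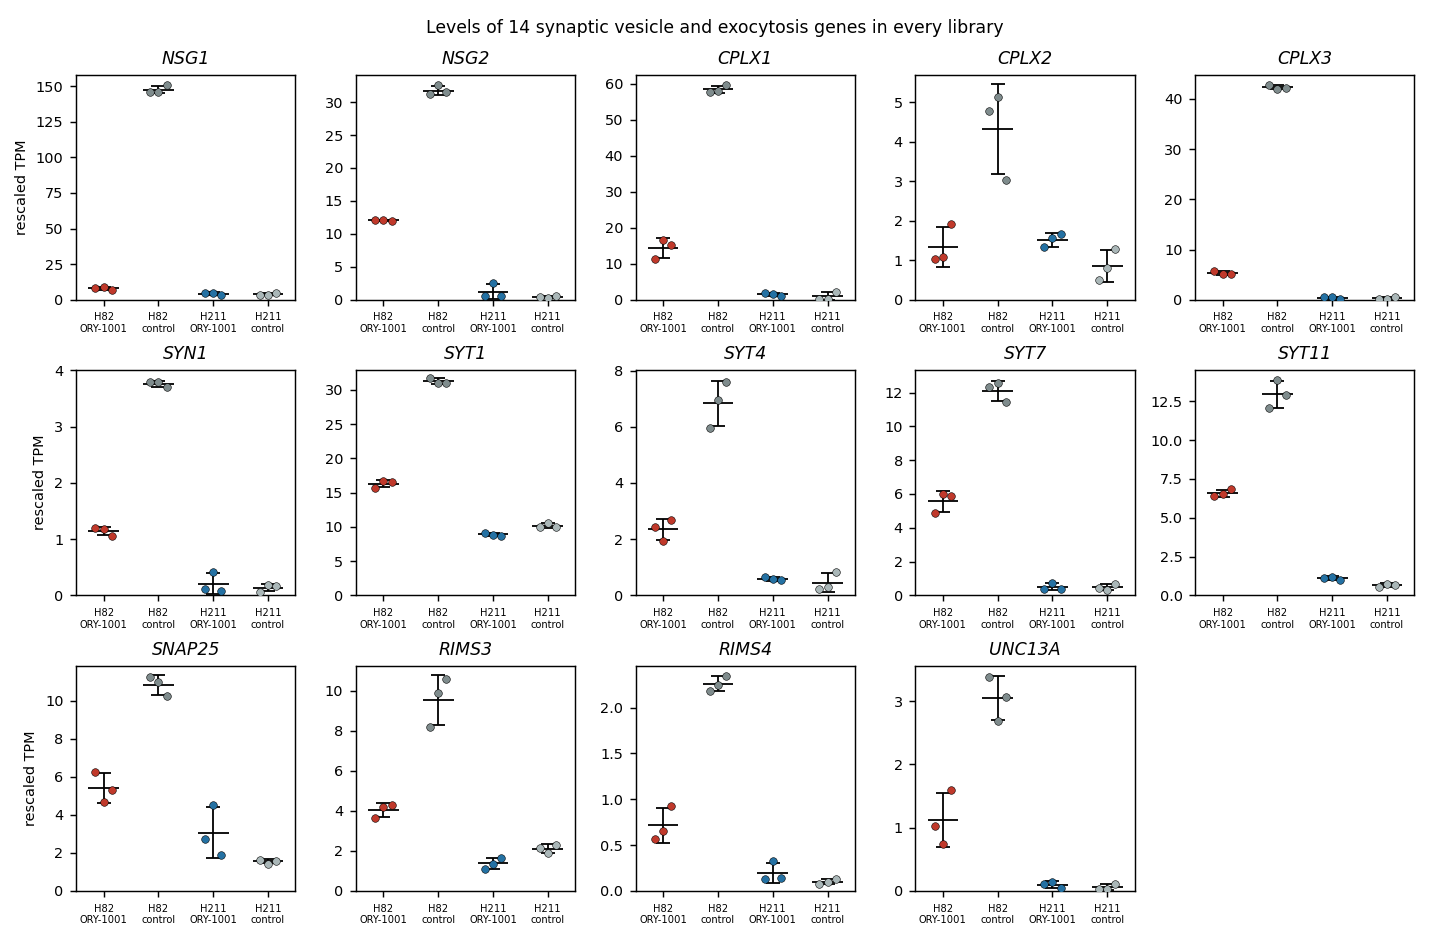
Level in rescaled TPM (y axis, from 0, each panel on its own scale) of 14 genes in the 3 libraries of each group, with the bar at the mean and whiskers of 1 SD. In H82 the red treated points lie below the grey controls in every panel, from 8.09 against 148 for NSG1 to 16.3 against 31.2 for SYT1, and the H211 groups lie near the floor in most panels. All 14 are genes called lower in H82, so a fall in every panel follows from the choice.

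Without the 4 libraries 22 of the 38 genes were called in H82, 21 of them lower, and 20 of the 22 falls were kept. Among the transcription factors that mark the lines, NEUROD1 was at 130 ± 6.02 with ORY-1001 and 137 ± 2.16 in controls of H82 (adjusted p = 0.50), and INSM1, a neuroendocrine factor, was at 16.1 ± 1.45 with ORY-1001 and 23.8 ± 2.02 in controls (SD, n = 3 each; adjusted p = 0.00859). How reads were assigned where genes share exon bases is not stated in the sources used here, nor is the use of strand. This could touch a few genes. In GENCODE 29, 99.7% of the exon bases of CPLX3 lie in the same-strand transcript AC091230.1, which was at 0.0388 or less in every library. VAMP2 shares 13.2% with AC129492.3, which reached 32.7, and STX1A shares 17.9% with BUD23 on the other strand, at 73.4 to 271. NSG1 shares 2.09% with STX18, at 21.6 to 28.3, and VAMP1, RAB3A, DOC2A and NAPA share 4.44% to 16.9% with a gene on the other strand.

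In H211 the same genes showed small changes in both directions. With ORY-1001, 3 of the 38 rose and 6 fell, where 8.95% of all genes tested rose and 9.61% fell, and none changed by 2-fold on the log2(level + 1) scale. These are 7.89% and 15.8% of the 38, and the median log2 fold change was 0.10, beside -0.002 over all genes. Summed over the 44 genes, the level was 289 ± 18.6 with ORY-1001 and 293 ± 7.02 in controls (SD, n = 3 each). RTN1 was at 16.7, 21.9 and 18.4 with ORY-1001, against 11.7, 13.1 and 14.6 in controls (1.45-fold higher, log2 fold change 0.50, adjusted p = 0.00267). SNAP25 was at 2.74, 4.51 and 1.90 with ORY-1001, against 1.64, 1.43 and 1.58 in controls (log2 fold change 0.62, adjusted p = 0.0402), and the treated libraries were widely spread. SYT11 was at 1.13, 1.21 and 0.973 with ORY-1001, against 0.505, 0.757 and 0.673 in controls (log2 fold change 0.36, adjusted p = 0.0176). All 3 of these genes fell in H82.

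The 6 falls in H211 were shallow. SV2A was at 20.6, 21.3 and 20.9 with ORY-1001, against 26.6, 26.0 and 24.4 in controls (1.23-fold lower; log2 change -0.28, adjusted p = 0.00302). SYNGR1 was at 4.48, 4.24 and 3.90 with ORY-1001, against 5.63, 6.19 and 6.63 in controls (log2 fold change -0.46, adjusted p = 0.00383). SYT1 was at 9.16, 8.85 and 8.68 with ORY-1001, against 9.95, 10.6 and 9.93 in controls (log2 fold change -0.17, adjusted p = 0.0352). In these 3 genes all treated libraries lay below all controls. RIMS3 was at 1.12, 1.36 and 1.65 with ORY-1001, against 2.12, 1.89 and 2.31 in controls (adjusted p = 0.0373), and RAB3B at 1.17 ± 0.067 with ORY-1001 and 1.71 ± 0.156 in controls (SD, n = 3 each; adjusted p = 0.0261). SNAP91 was at 1.95 ± 0.442 with ORY-1001 and 3.39 ± 1.17 in controls (adjusted p = 0.046), with overlapping groups. SV2A, SYT1 and RIMS3 fell in H82 as well.

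None of the 9 H211 calls held in every alternative fit. The fit without the 4 libraries leaves 1 H211 control and assumes that it varies like the other groups. It is therefore a weak check on these 9 calls. In H211 the blood transcripts summed to 46.3, 35.9 and 33.6 with ORY-1001 and 134, 264 and 42.9 in controls, and their part in these calls was not tested. Scaling to equal totals without mitochondrial genes turned the 1383 genes that rose and 1485 that fell in H211 into 961 and 2016.

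Of the 14 tested genes given with every library for H82, 6 were under 1 in all 6 H211 libraries, and their changes there rest on very low values. In H211, CPLX3 averaged 0.361 ± 0.241 with ORY-1001 and 0.290 ± 0.221 in controls, SYN1 0.204 ± 0.186 with ORY-1001 and 0.138 ± 0.0634 in controls, and UNC13A 0.0994 ± 0.0491 with ORY-1001 and 0.0588 ± 0.0495 in controls. SYT4 was at 0.587 ± 0.0638 with ORY-1001 and 0.454 ± 0.335 in controls, SYT7 at 0.511 ± 0.194 with ORY-1001 and 0.487 ± 0.180 in controls, and RIMS4 at 0.197 ± 0.109 with ORY-1001 and 0.102 ± 0.0238 in controls (SD, n = 3 each). None of these 6 was called. NSG1 was at 4.55, 4.92 and 3.12 with ORY-1001, against 3.58, 3.34 and 4.55 in controls (adjusted p = 0.678), so the groups overlapped. CPLX1 was at 1.88, 1.54 and 1.12 with ORY-1001, against 0.245, 0.359 and 2.20 in controls, CPLX2 at 1.33, 1.56 and 1.68 with ORY-1001, against 0.495, 0.801 and 1.29 in controls, and NSG2 at 0.607, 2.52 and 0.577 with ORY-1001, against 0.395, 0.240 and 0.644 in controls. These 3 were not called either (adjusted p = 0.270, 0.150 and 0.155). Of the other tested calcium sensors and scaffolds, DOC2A, SYT5, ERC2, RIMS2 and PCLO averaged under 1 in both H211 groups.

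The difference between the lines in the response was tested directly. The ORY-1001 effect was higher in H211 than in H82 for 22 of the 38 genes and lower for 2. The shares of all genes tested were 17.8% and 14.3%. Of the 22, SYT4, SYT7, SYN1, SYN2, CPLX3, RIMS4, UNC13A and AMPH reached 1 only in H82 libraries. Their low H211 levels left little room for a fall there, so their differences rest mostly on the falls in H82. The same limit touches NSG2, SYT11, CPLX2 and CPLX1, which averaged 0.426, 0.645, 0.863 and 0.933 in H211 controls. The median difference in log2 fold change was 0.56, beside 0.01 over all genes. Of the 22, 12 differed by at least 1 on the log2 scale, as did 525 of the 15456 genes tested. Among these 12, CPLX3, SYN1, UNC13A, SYT4, SYT7 and RIMS4 were under 1 in every H211 library. NSG1 differed most, by 4.13 (SE 0.191, adjusted p = 1.14e-07), with log2 fold changes of 0.10 in H211 and -4.04 in H82. CPLX3 differed by 2.84, CPLX1 by 2.47, NSG2 by 1.87, CPLX2 by 1.64 and SNAP25 by 1.51. SYNGR1 and RAB3B went the other way, by -0.45 and -0.44, as they fell in H211 and were not called in H82. SYT5, which fell in H82, had no called difference between the lines (0.77, SE 0.290, adjusted p = 0.0645). Without the 4 libraries 17 of the 24 differences were called, and all 17 were higher in H211.

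H211 and H82 controls carried this machinery at very different levels. Of the 38 tested genes, 4 were higher in H211 and 31 lower, where the shares of all genes tested were 39.7% and 40.8%. The median log2 difference was -1.85, beside -0.02 over all genes, a value that scaling without mitochondrial genes moved to 0.14. Of the 38, 14 reached 1 only in H82 libraries and so passed the filter through that line alone, and without them 4 of 24 were higher and 17 lower in H211. RAB3B and SNAP91 passed through H211 libraries alone, and without these 2 genes 2 of 36 were higher and 31 lower. Without the 4 libraries 33 of the 38 were called, and AMPH and NAPA were lost (adjusted p = 0.0728 and 0.0541). H211 controls held 19 to 23 of the 44 genes at 1 or more and 9 at 5 or more, and H82 controls held 36 and 26 to 28. RTN1 was at 13.1 ± 1.45 in H211 controls and 879 ± 7.09 in H82 controls, 67.0-fold higher in H82 (log2 difference -5.97). SYP was at 3.14 ± 0.468 in H211 and 166 ± 5.07 in H82 (-5.34), CPLX1 at 0.933 ± 1.09 in H211 and 58.5 ± 0.960 in H82 (-5.08), and CPLX3 at 0.290 ± 0.221 in H211 and 42.3 ± 0.378 in H82 (-5.08). NSG1 was at 3.82 ± 0.637 in H211 and 148 ± 2.71 in H82 (-4.95), and NSG2 at 0.426 ± 0.204 in H211 and 31.7 ± 0.724 in H82 (-4.53; SD, n = 3 each). Adjusted p for these 6 ran from 2.34e-13 to 1.1e-08.

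The 4 genes higher in H211 controls were NSF, NAPA, SNAP91 and RAB3B. NSF, the ATPase of membrane fusion in all cells, was at 79.6 ± 5.84 in H211 controls and 35.9 ± 5.65 in H82 controls, and NAPA at 79.6 ± 1.26 in H211 and 73.1 ± 1.03 in H82 (SD, n = 3 each; adjusted p = 9.27e-07 and 0.00729). The near copy NSFP1 was at 9.47, 10.4 and 11.2 in H211 controls, against 4.44, 5.08 and 5.35 in H82 controls. How reads were divided between it and NSF is not known, so the size of the NSF difference is uncertain. SNAP91 was at 4.64, 3.21 and 2.32 in H211 controls, against 0.0996, 0.0213 and 0.0929 in H82 controls (adjusted p = 4.3e-07). RAB3B was at 1.78, 1.82 and 1.53 in H211, against 0.527, 0.416 and 0.510 in H82 (adjusted p = 2.02e-06). SNAP91 and RAB3B reached 1 only in H211 libraries. SV2A (25.7 ± 1.14 in H211 and 25.4 ± 0.740 in H82), DNM1 (21.1 ± 1.52 in H211 and 17.7 ± 2.18 in H82) and VAMP1 (2.30 ± 0.909 in H211 and 2.08 ± 0.496 in H82) were not called between the lines. STX1A, RAB3A, VAMP2 and SYT1 were lower in H211 but detected there, at 3.08 ± 0.320, 10.0 ± 0.461, 10.1 ± 0.740 and 10.2 ± 0.370 in H211 controls.

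In H211 controls 10 of the 38 genes stood at under 3% of their H82 control level. Among these 10, SYT5, SYN2, CPLX3, RAB3C and UNC13A reached 1 only in H82 libraries and so were tested through that line alone. The share of all genes was not counted. Among the 1358 genes at 100 or more in H82 controls, RTN1 had the 18th lowest share in H211 controls (1.49%), SYP the 28th (1.89%) and NSG1 the 36th (2.59%). NEUROD1 stood at 1.23%, and 1 of the 1358, GAGE12E, was at 0. The H211 libraries held NEUROD1 at 2.04, 1.72 and 1.95 with ORY-1001, against 1.40, 2.10 and 1.56 in controls, and these values overlapped. Whether the low H211 levels come from the H211 cells was not tested. In 19 of the 22 genes that fell in H82, every treated H82 library was still above every H211 control. Of the 22, 21 were already higher in H82 controls than in H211 controls, and the share of all genes was not counted. The 19 therefore describe levels and say nothing about the response.

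**Figure D3:**
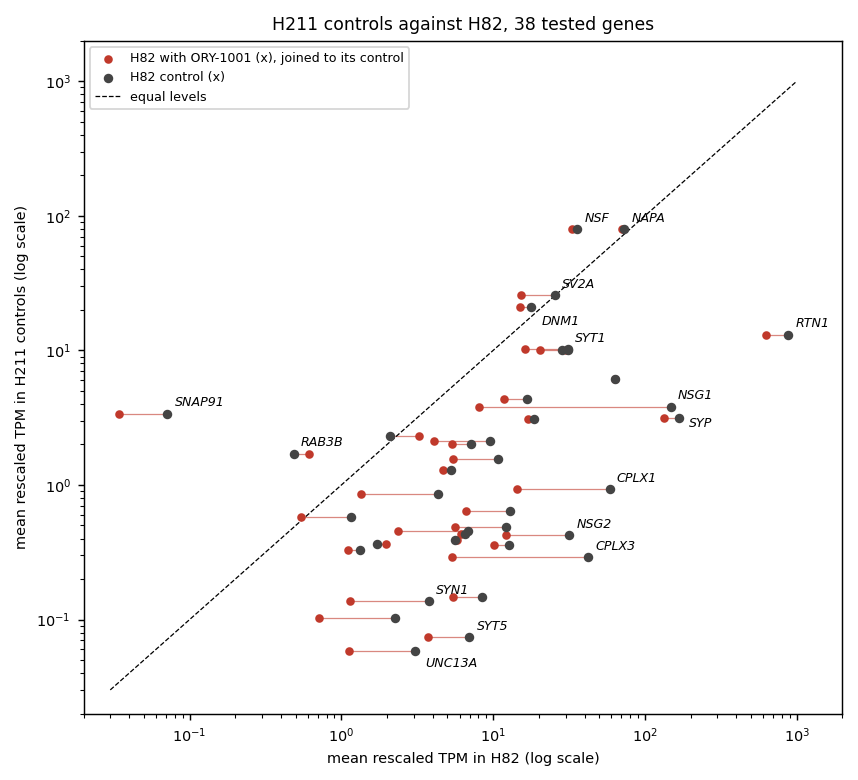
Mean level in H211 controls (y axis) against mean level in H82 (x axis), both in rescaled TPM on log scales, for the 38 tested genes; red points are H82 with ORY-1001, joined to the dark points of H82 controls, and the dashed line marks equal levels. Most dark points lie below the line, with RTN1 at 13.1 in H211 and 879 in H82, while SNAP91, RAB3B and NSF lie above it.

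Other genes of the same pathways, from 5 lists that do not overlap the 44, were set beside them, and their medians in H82 were nearer 0 with 1 exception. Their counts stand beside the 23.9% of all genes tested that fell and the 19.1% that rose. Of 9 tested relatives of the synaptotagmins, 5 fell (55.6%) and 0 rose in H82 (median log2 fold change -0.60). DOC2B, a calcium sensor like DOC2A, was at 2.61 ± 0.0404 with ORY-1001 and 11.9 ± 0.567 in controls (SD, n = 3 each; log2 fold change -1.83, adjusted p = 1.36e-07), and SYT6 and SYT3 changed by -0.83 and -0.82. Of 17 SNARE and fusion partners, 5 fell (29.4%) and 2 rose (11.8%), with a median of -0.05, so the share that fell was near that of all genes. STXBP5L fell by 0.79 and VAMP8, a SNARE of endosomes and granules, rose by 0.47 on the log2 scale. Of 11 other vesicle membrane proteins and transmitter transporters, 7 fell (63.6%) and 2 rose (18.2%), with a median of -0.28, and SV2C was at -0.82, SYNGR4 at -0.77 and the secretory carrier SCAMP5 at -0.76.

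Of 18 further genes of RAB3, the active zone and synaptic adhesion, 9 fell (50%) and 2 rose (11.1%), with a median of -0.19. UNC13D, the Munc13 of granule release, was at 1.88 ± 0.212 with ORY-1001 and 6.67 ± 0.119 in controls of H82 (log2 fold change -1.42, adjusted p = 4.29e-05). RAB27A, a GTPase of granule docking, changed by -0.80. Of 30 other clathrin endocytosis genes, 13 fell (43.3%) and 5 rose (16.7%), with a median of -0.17. The phosphatase SYNJ2 rose by 1.01, and DNAJC6, the auxilin that uncoats clathrin, and the heavy chain CLTCL1 changed by -0.67 and -0.64.

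In H211, 18.6% of all genes tested were called in either direction (8.95% rose and 9.61% fell). The share called was 5.88% of the SNARE partners, 9.09% of the vesicle proteins and transporters, 11.1% of the RAB3, active zone and adhesion genes, 22.2% of the synaptotagmin relatives and 23.3% of the clathrin genes. The 1 vesicle gene called was SLC18A3, the vesicular acetylcholine transporter, at 0.912 ± 0.0829 with ORY-1001 and 4.77 ± 0.162 in controls (SD, n = 3 each; log2 fold change -1.59, adjusted p = 4.91e-07). The endocytic adaptor EPN3 was at 6.0 ± 1.19 with ORY-1001 and 14.7 ± 1.24 in controls (log2 fold change -1.17, adjusted p = 0.000138). With it, 4 of the 30 clathrin genes fell (13.3%) and 3 rose (10%), shares near those of all genes, and AP2B1 (-0.30) and EPS15 (-0.29) were among the falls. Of the SNARE partners VAMP3 fell by 0.23 on the log2 scale, and of the synaptotagmin relatives ESYT1 and ESYT2 changed by -0.25 and -0.22. NLGN1, a neuroligin, changed by -0.55 and PPFIA3, a liprin of the active zone, by 0.47.

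**Figure D4:**
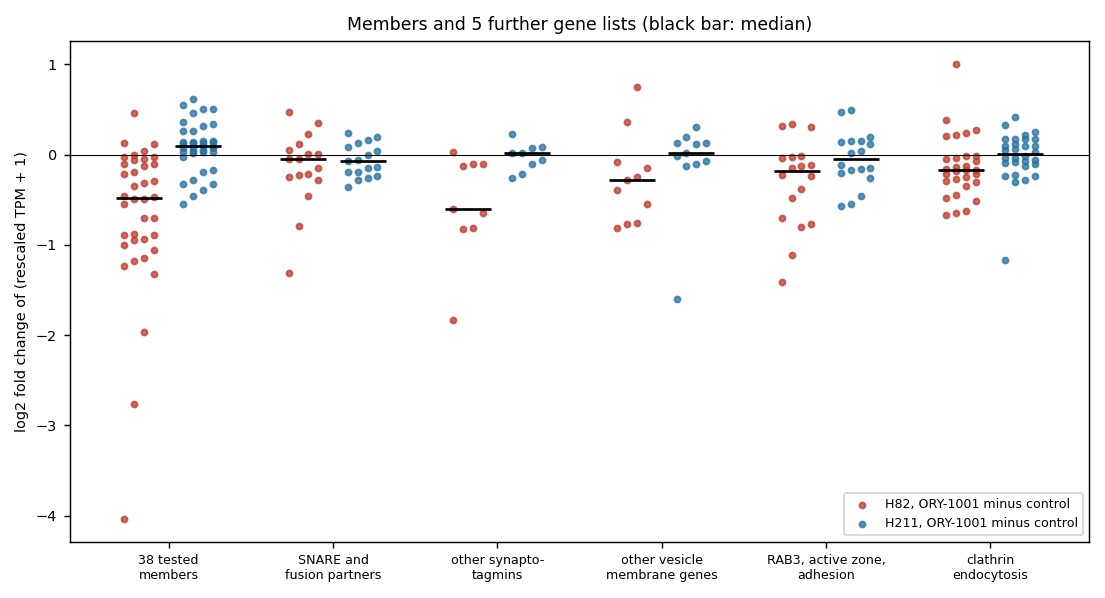
Log2 fold change with ORY-1001 (y axis, log2 of rescaled TPM + 1, treated minus control) of each tested gene in the 38 and in 5 further lists, for H82 (red) and H211 (blue), with black bars at the medians. The H82 medians run from -0.60 to -0.05 and the H211 medians from -0.07 to 0.10.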

How the data were processed

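Messenger RNA of the 12 libraries was enriched with oligo(dT), prepared with the NEBNext Ultra II kit and read in pairs on an Illumina HiSeq, per the labels' protocols. The submitters' processing notes name, with no role or order, STAR 2.5.2b, Salmon 1.1.0, sleuth 0.30.0, Trimmomatic 0.36, DESeq2, Subread 1.5.2 with featureCounts, R 4.0.4 and the hg38 build; no annotation or strand setting is stated in what was used here. The authors' deposited values are a signal in TPM that appears to have been rescaled by them, since totals of the columns differ (967415 to 1111990). Reads per gene were not used here, so depth and counting error are unknown.

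Groups and replicate numbers came from the sample labels. Genes at 1 or more in at least 3 libraries (15456) were tested as log2(level + 1) with limma 3.58.1 in R 4.3.3, with 4 group means in 1 model, a trend in the variance prior, two-sided tests and Benjamini-Hochberg adjustment within each of 4 contrasts: ORY-1001 against control in each line, the difference between these effects, and H211 against H82 controls. The fit was tested on simulated data. The 44 genes, their roles and the further lists were chosen with earlier results of these data known. The rule gives every library's value for NSG1, CPLX3, SYN1 and SYT1 and for called genes with a log2 change of at least 1 in a line or between the effects; other such values were added after they were seen. Each further list has up to 3 called genes a line named by size of change, and the controls up to 6 each way. A few genes that the rule would name are not reported here. Promoters are from RefSeq (GRCh38.p14). Alternatives changed the pseudocount, filter, scaling, variance prior, weights, replicate block, fit by line and libraries; the fit without 4 libraries was chosen after the data were seen.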

Additional observations from a re-analysis of the deposited data

Results flagged for a closer look

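The effect of ORY-1001 differed between the lines, by the test of the difference itself (limma, adjusted p under 0.05), in 24 of the 38 tested genes. Values are the log2 effect in H211 minus that in H82. The complexins and neuronal endosome proteins stood first, with NSG1 at 4.13, CPLX3 at 2.84, CPLX1 at 2.47, NSG2 at 1.87 and CPLX2 at 1.64. The SNARE SNAP25 was at 1.51 and VAMP2 at 0.60. Among the synaptotagmins the difference was 1.38 for SYT4, 1.23 for SYT11, 1.02 for SYT7 and 0.72 for SYT1. Among vesicle proteins it was 1.22 for SYN1, 0.59 for SYN2, 0.57 for SYP and 0.42 for SV2A. At the active zone it was 1.05 for RIMS4, 1.00 for UNC13A, 0.67 for RIMS3 and 0.50 for UNC13B. RTN1 was at 0.99, AMPH at 0.51 and NAPA at 0.15. SYNGR1 at -0.45 and RAB3B at -0.44 were lower in H211. These differences rest on 3 libraries a group, and in 7 of them (AMPH, NAPA, RAB3B, RIMS3, SYNGR1, SYP and UNC13B) at least 1 alternative fit lost the call. AMPH, CPLX3, RIMS4, SYN1, SYN2, SYT4, SYT7 and UNC13A were under 1 in every H211 library, which left little room for a fall there. NSG2, SYT11, CPLX2 and CPLX1 averaged 0.426, 0.645, 0.863 and 0.933 in H211 controls, so they had little room as well.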

How the results depend on the processing

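Depth is unknown, so no value has a counting interval, and genes under 1 in a line rest on little signal. No direction of a called gene turned under any alternative. Calls made with all 12 libraries were counted as kept if no alternative that tested the gene lost them. Kept were 20 of 22 in H82, 0 of 9 in H211, 17 of 24 differences between the effects and 33 of 35 between controls. In H82, AMPH and RIMS4 were tested in only 20 alternatives and CPLX2, SYN1 and UNC13A in 23, where SYT1 was tested in 24. Genes of the list called in H82 numbered 22, and 19 to 23 with each library left out in turn; the differences ran from 21 to 25 and the controls from 33 to 36 in those fits. In H211 the 9 called became 3 to 10 with each library left out: 3 without H211 ORY-1001 replicate 1 or H211 control replicate 1, 4 without H211 ORY-1001 replicate 2 or H211 control replicate 2, and 5 without H82 control replicate 2. They became 5 with no filter on low values, where more genes were tested, and 0 without the 4 libraries named in the report. Over all genes tested, that last fit called 559 in H211, where all 12 libraries gave 2868, and 2899 differences, where they gave 4956; fewer samples entered it. Leaving out each library gave 5728 to 6647 in H82, 1960 to 3042 in H211, 4299 to 4614 differences and 11989 to 12395 between controls. With the replicate number as a block, 5 of the genes were called in H211; same-numbered libraries did not deviate together (r = -0.0805 to 0.0449), so the numbers do not pair the samples, and the block changed no other of these counts by over 1.5 times. Fits of each line by itself give no value for the difference or the controls.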
